A study of Mus musculus with 4 samples.

Results

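The Mas-related receptor genes *Mrgpra1*, *Mrgpra2a*, *Mrgpra2b*, *Mrgpra3* and *Mrgprd* were taken by name from the 470 genes counted in situ in mouse vagal ganglia (5 of 470 genes). Sections of 5 μm were cut from the vagal ganglia of adult male C57BL/6 mice and measured with Xenium probes, which count single transcripts inside segmented cells. All mice had been given *A. alternata* extract, a fungal allergen, by the intranasal route (50 μL at 25 μg/mL on days 0, 3, 6 and 9), and tissue was taken 16 hours after the last dose. The 3 sections are therefore 1 treated group without a saline section, and the levels below describe treated ganglia and say nothing about the effect of the allergen. The sources used here do not say whether the sections came from separate mice. Each section gave every cell class, so p-values rest on how the differences between classes varied over the sections. This variation may be technical.

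The sections held 3211, 2716 and 3858 cells with 70313 to 108121 transcripts, and the median cell had 9 transcripts. Cells were sorted by counts of genes outside the receptor family. Cells with a sum of at least 5 transcripts of *Snap25*, *Tubb3*, *Scg2* and *Gap43* were taken as neurons (427, 435 and 542 cells in sections 1, 2 and 3). Cells with at least 2 transcripts of *Prx* and fewer than 2 of the neuron transcripts were taken as Prx-positive cells (228, 223 and 334). *Prx* encodes periaxin, a protein of myelinating Schwann cells. All others were the remaining cells (2556, 2058 and 2982). A list of 12 neuron markers, which includes the gate genes, summed to 291567 to 302549 CPM (counts scaled to a class total of 1000000) in neurons and to 7535 to 14744 CPM in Prx-positive cells. A list of 6 Schwann cell and glia markers, which includes *Prx*, summed to 22735 to 23259 CPM in neurons and to 429414 to 471327 CPM in Prx-positive cells. The classes differed widely in depth, with a median of 87 transcripts in a neuron, 11 in a Prx-positive cell and 7 in a remaining cell. For this reason each level is given both as CPM, the share of all transcripts of the class, and as transcripts per 100 cells.

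Mas-related receptors are G protein-coupled receptors best known from small unmyelinated sensory neurons of the skin. *Mrgpra3* encodes a chloroquine receptor and marks itch neurons of the dorsal root ganglion, *Mrgprd* encodes a beta-alanine receptor and marks nonpeptidergic nociceptors, *Mrgpra1* encodes a receptor activated by bilirubin, and the *Mrgpra2* pair has been described on neutrophils as receptors for antimicrobial peptides. In the vagal ganglia, the jugular part derives from the neural crest and expresses *Prdm12*, a transcription factor needed for nociceptors, and the nodose part derives from placodes.

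All 5 genes were matched to RefSeq and lie on chromosome 7 of GRCm38. The *Mrgpra* genes form a cluster of 266 kb on the minus strand, in which *Mrgpra1* spans 47334875 to 47354240, *Mrgpra2a* 47426325 to 47452164, *Mrgpra2b* 47463807 to 47489582 and *Mrgpra3* 47588950 to 47601372. *Mrgprd* lies 97.7 Mb further on the plus strand (145314835 to 145324059). Each gene has 2 exons in GENCODE. The coding sequence lies in both exons of the *Mrgpra* genes and in 1 exon of *Mrgprd*. The coding sequences of *Mrgpra2a* and *Mrgpra2b* are the same at 994 of 996 aligned bases, and 1077 of the 1201 windows of 40 bases in the *Mrgpra2a* transcript (89.7%) also occur in *Mrgpra2b*. *Mrgpra1* and *Mrgpra3* are 83.4% identical over the aligned coding sequence and share 16 of 1049 such windows. *Mrgpra1* and *Mrgpra2b* are 85.2% identical and share 0 of these windows. *Mrgprd* shares none with the other receptors. The probe sequences were not used here, so how signal was split between *Mrgpra2a* and *Mrgpra2b* is uncertain, and their counts are given separately as deposited. The stretch of 45 bases below is coding in both genes and is the first run shared by *Mrgpra1* and *Mrgpra3*, bases 164 to 208 of the *Mrgpra1* transcript. It is shown as an example of sequence that would not tell the 2 genes apart.
Mrgpra1 and Mrgpra3: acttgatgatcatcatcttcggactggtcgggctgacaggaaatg

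The sequences before the start sites are shown because *Mrgpra1* and *Mrgpra2b* were often detected in the same neurons, and *Mrgprd* differed from both in its tie to *Prdm12* (below). They cover the 250 bases upstream of the RefSeq start on GRCm38.p6, read 5′ to 3′ on the strand of the gene. The windows are chr7:47354241-47354490 for *Mrgpra1* (minus strand), chr7:47452165-47452414 for *Mrgpra2a* (minus strand) and chr7:145314585-145314834 for *Mrgprd* (plus strand). The window of *Mrgpra2b* at chr7:47489583-47489832 is identical to that of *Mrgpra2a* at all 250 bases. Capitals mark each match to TGNGGT on either strand. With any base allowed at N, this pattern is looser than the letters bound by Runx factors, so a match need not be a Runx site. Binding was not tested.
Mrgpra1: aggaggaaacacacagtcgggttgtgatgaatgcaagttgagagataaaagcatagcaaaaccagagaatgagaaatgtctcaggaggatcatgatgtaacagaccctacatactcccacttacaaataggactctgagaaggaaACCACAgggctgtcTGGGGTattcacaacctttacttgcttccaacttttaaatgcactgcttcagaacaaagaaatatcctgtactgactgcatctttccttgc
Mrgpra2a: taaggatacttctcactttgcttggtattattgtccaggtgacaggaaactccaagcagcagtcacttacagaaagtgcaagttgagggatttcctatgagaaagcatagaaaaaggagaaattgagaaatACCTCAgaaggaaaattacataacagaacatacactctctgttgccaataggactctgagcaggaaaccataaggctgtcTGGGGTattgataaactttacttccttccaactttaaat
Mrgprd: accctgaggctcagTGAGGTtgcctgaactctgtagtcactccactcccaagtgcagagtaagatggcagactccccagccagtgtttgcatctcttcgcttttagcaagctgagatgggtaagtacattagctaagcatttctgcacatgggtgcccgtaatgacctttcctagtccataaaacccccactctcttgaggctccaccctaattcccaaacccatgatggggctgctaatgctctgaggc
The windows of *Mrgpra1* and *Mrgpra2a* held 2 matches each and that of *Mrgprd* held 1. Of 32851 promoters of this length, 40.1% held at least 1 match, so the match itself is common. The longest run shared by the *Mrgpra1* and *Mrgpra2a* windows has 16 bases and contains 1 of the matches, ggctgtctggggtatt. The longest run that *Mrgprd* shares with *Mrgpra2a* has 8 bases. The letters TATAAA were found in none of these windows and in 12.4% of all promoters.

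The first comparison asked where the receptor transcripts lay, in neurons, Prx-positive cells or remaining cells. *Mrgpra2b* was higher in neurons than in both other classes per cell, and as a share of the transcripts than in remaining cells alone. *Mrgpra1* and *Mrgprd* were higher in neurons per cell but were not called as a share of the transcripts. *Mrgpra3* stood apart, since its number per cell was about the same in every class and its CPM was several-fold lower in neurons. Of the transcripts of each gene, neurons held 334 of 411 for *Mrgpra2b* (81.3%), 27 of 35 for *Mrgpra2a* (77.1%), 87 of 140 for *Mrgpra1* (62.1%), 78 of 127 for *Mrgprd* (61.4%) and 87 of 537 for *Mrgpra3* (16.2%). Neurons were 14.3% of the cells and held 168376 of the 252167 transcripts of all genes. *Mrgpra1* and *Mrgprd* lay below this share of all transcripts. With sections pooled, they were at 517 and 463 CPM in neurons and at 555 and 504 CPM in all cells.

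**Figure D1:**
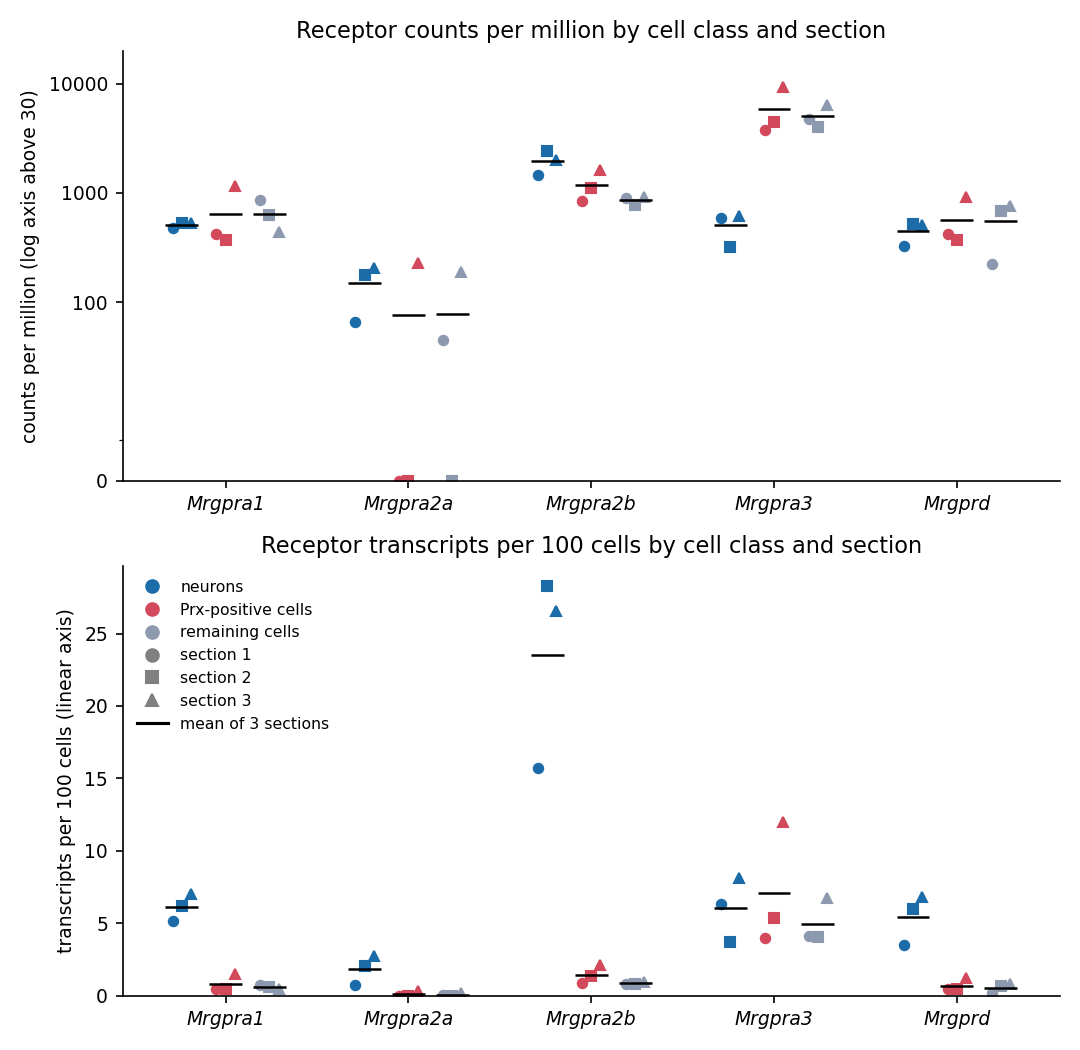
CPM (top, log axis above 30) and transcripts per 100 cells (bottom, linear axis) of the 5 receptors in neurons, Prx-positive cells and remaining cells, with 1 point per section and a bar at the mean of 3 sections. *Mrgpra3* lies between 317 and 610 CPM in neurons and between 3767 and 9234 CPM in the other classes, but at 3.68 to 12 transcripts per 100 cells in all 3.

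In Prx-positive cells *Mrgpra3* was at 3767, 4423 and 9234 CPM in sections 1, 2 and 3. In neurons it was at 590, 317 and 610 CPM. The groups did not overlap, and section 3 was high among the Prx-positive cells. The log2 fold change of Prx-positive cells over neurons was 3.60 (standard error 0.32, adjusted p = 9.54e-27 from edgeR), higher in 3 of 3 sections, and 3.19 without section 3. Of the 259 genes tested in this comparison, 35.9% were called higher and 27% lower on the CPM scale, with a median log2 fold change of 0.62 over all of them, so that a call alone does not single out *Mrgpra3*. The other receptors tested were not called, with log2 fold changes of 0.52 for *Mrgpra1*, -0.64 for *Mrgpra2b* and 0.42 for *Mrgprd* (adjusted p = 0.508, 0.203 and 0.622 from edgeR). *Mrgpra2a* had too few transcripts to be tested. The test pools its variance over genes, so a very small p-value does not come from the 3 sections of a single gene.

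Per cell, the difference was no longer there. Prx-positive cells held 3.95, 5.38 and 12 *Mrgpra3* transcripts per 100 cells, and neurons held 6.32, 3.68 and 8.12. The ranges overlapped, and the log2 fold change was 0.28 (standard error 0.27, adjusted p = 0.35 from edgeR). On this scale *Mrgpra1* (log2 fold change -2.79, adjusted p = 2.27e-07), *Mrgpra2b* (-3.96, adjusted p = 3.66e-26) and *Mrgprd* (-2.88, adjusted p = 3.8e-07 from edgeR) were lower in Prx-positive cells. Of all genes tested, 73% were lower and 1.93% higher per cell, with a median log2 fold change of -2.70. *Mrgpra1* and *Mrgprd* thus lay near the middle of the panel, and *Mrgpra3* well above it.

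For *Mrgpra3*, neurons and remaining cells gave the same picture with more transcripts. Remaining cells had *Mrgpra3* at 4738, 4032 and 6359 CPM, all above the neurons (log2 fold change of neurons over remaining cells -3.33, standard error 0.19, adjusted p = 7.72e-58 from edgeR). *Mrgpra2b* was at 1464, 2439 and 1995 CPM in neurons and at 902, 777 and 917 CPM in remaining cells, again without overlap, and was the only receptor called higher in neurons on this scale (log2 fold change 1.16, standard error 0.23, adjusted p = 4.33e-07 from edgeR). *Mrgpra1* was at 481 to 535 CPM in neurons and 443 to 857 CPM in remaining cells, and *Mrgprd* at 328 to 516 and 226 to 759 CPM. Both pairs overlapped, and neither gene was called (log2 fold changes -0.27 and -0.31). The background here was 25.5% of genes higher and 64.1% lower in neurons, with a median log2 fold change of -1.45, and TMM scaling turned the *Mrgpra1* and *Mrgprd* values to 0.78 and 0.75, both called (adjusted p = 0.0183 and 0.0293 from edgeR). Per cell, *Mrgpra2b* (log2 fold change 4.75), *Mrgpra1* (3.32) and *Mrgprd* (3.27) were all higher in neurons, as were 74.1% of the genes tested, with 8.88% lower. *Mrgpra3* was not called per cell (log2 fold change 0.28, adjusted p = 0.203 from edgeR), against a median of 2.16 over all genes.

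Between Prx-positive and remaining cells, none of the 4 receptors tested was called by edgeR, at a background of 6.18% of genes higher and 38.2% lower in Prx-positive cells (7.34% and 31.3% per cell). None had an unadjusted p under 0.05 on the CPM scale, and DESeq2, limma and TMM scaling called none either. For *Mrgpra3* the log2 fold change was 0.27 (adjusted p = 0.403 from edgeR), -0.081 without section 3, and 0.55 per cell (adjusted p = 0.0555). In cells with at least 10 transcripts alone it was 0.89 and called (adjusted p = 0.0202 from edgeR, and 0.0555 to 0.992 under the other alternatives). The number of *Prx* transcripts in a cell gave no steady order. Cells with fewer than 2 neuron transcripts held 4.57 *Mrgpra3* transcripts per 100 cells at 0 *Prx*, 7.65 at 1, 8.20 at 2, 6.32 at 3 and 8.42 at 4 or more.

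Within the remaining cells, *Mrgpra3* differed several-fold between subsets. It was at 458 ± 108 CPM (SD, n = 3 sections) in the 920 cells with at least 3 transcripts of *Car3* and *Pck1*, genes of fat cells, where 3, 2 and 5 transcripts were counted in the sections. In the other 6676 remaining cells it was at 6870 ± 1639 CPM, which did not differ beyond its spread from the Prx-positive cells (5808 ± 2985 CPM). The *Car3* and *Pck1* subset had a median of 21 transcripts a cell, more than the 6 of the other remaining cells, and still held 1.06 ± 0.337 *Mrgpra3* transcripts per 100 cells against 5.50 ± 1.69. *Mrgpra2b* was at 56.5 ± 97.9 CPM in the *Car3* and *Pck1* subset (1 transcript in all) and at 1188 ± 145 CPM in the other remaining cells.

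Depth was then held constant. A thinned share follows the share of a cell's own transcripts, as CPM does. It is therefore no separate support for the CPM values and cannot decide between them and the counts per cell. After thinning each cell to 10 transcripts, the expected share of cells with *Mrgpra3* was 0.745% ± 0.225 in neurons, 5.65% ± 2.27 in Prx-positive cells, 3.99% ± 1.63 in remaining cells and 0.542% ± 0.0774 in the *Car3* and *Pck1* subset (SD, n = 3 sections). Thinning left out 325 Prx-positive and 4972 remaining cells with fewer transcripts. Without thinning, the shares were 5.48%, 6.70%, 4.70% and 0.961%. For *Mrgpra2b* the thinned shares were 1.53% ± 0.333, 1.22% ± 0.702, 0.779% ± 0.165 and 0.0667% ± 0.115, and the share in neurons without thinning was 13.3%. The share of *Mrgpra3* in neurons, once thinned, was close to that in the *Car3* and *Pck1* subset, and that in Prx-positive cells was above both in every section.

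**Figure D2:**
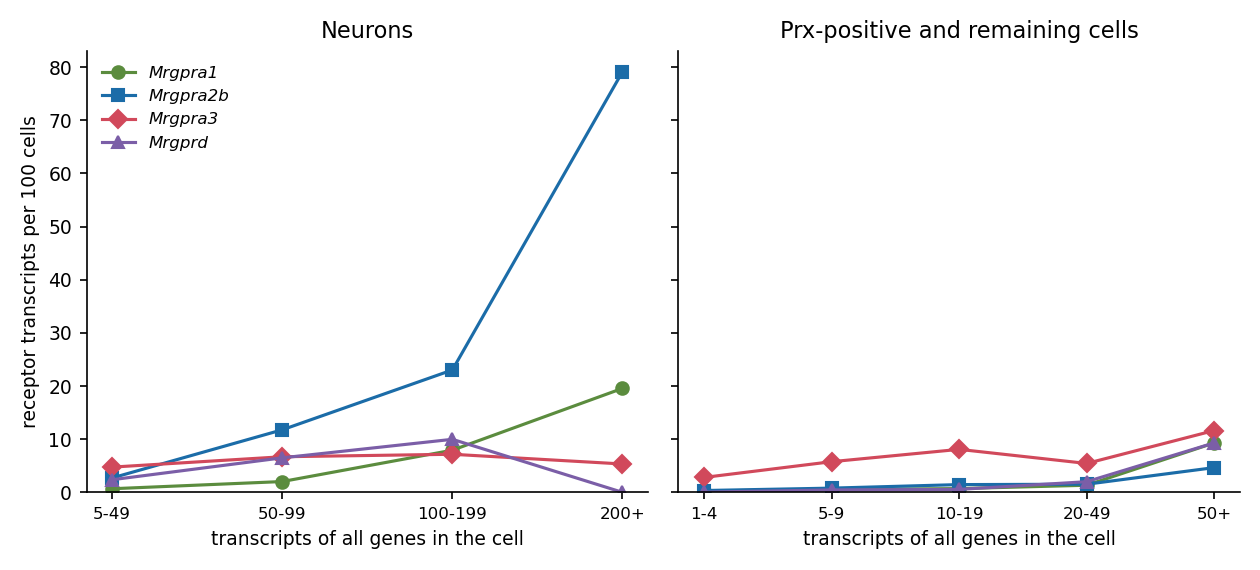
Transcripts per 100 cells of 4 receptors (vertical axis, all sections pooled) against the number of transcripts of all genes in the cell (horizontal axis, in bins), in neurons (left) and in all other cells (right). *Mrgpra2b* climbs from 2.71 to 79.1 over the neurons while *Mrgpra3* stays between 4.75 and 7.16, and *Mrgprd* falls to 0 in the deepest neurons.

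The 2 genes also behaved differently against depth within the neurons. *Mrgpra2b* was at 2.71, 11.8, 23.0 and 79.1 transcripts per 100 neurons in neurons of 5 to 49, 50 to 99, 100 to 199 and 200 or more transcripts. *Mrgpra3* was at 4.75, 6.69, 7.16 and 5.33. *Mrgprd* was at 2.37, 6.49 and 9.97 in the first 3 bins and was not detected in the 225 deepest neurons, which held 68602 transcripts. *Mrgpra3* counts were also scattered over cells. Its variance over mean of counts per cell was 1.15 in neurons and 1.07 over all cells, close to the value of 1 of counts placed at random, and 472 of the 504 cells with a transcript held only 1. In neurons the ratio was 2.95 for *Mrgpra2b*, 2.15 for *Mrgprd* and 1.61 for *Mrgpra1*.

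Negative control probes, summed over all such probes, were counted 84 times in all cells. They gave 1.78 counts per 100 neurons, 0.892 per 100 Prx-positive cells and 0.685 per 100 remaining cells, and 0.405, 0.773 and 1.30 per 100 cells in sections 1, 2 and 3. Section 3, where *Mrgpra3* was highest outside neurons, thus also had the most control counts. The summed rate is not the rate of a single control probe, which was not computed, so it is no background level for 1 gene. Outside neurons, *Mrgpra1* (means over sections of 0.795 and 0.615 per 100 Prx-positive and remaining cells), *Mrgprd* (0.695 and 0.560) and *Mrgpra2a* (0.0998 and 0.0801) were close to or under the summed control rate of all sections. *Mrgpra2b* (1.44 and 0.844) was above it, and *Mrgpra3* was several times above it. Within sections this did not always hold. In remaining cells, *Mrgpra1* was at 0.743, 0.632 and 0.469 and *Mrgprd* at 0.196, 0.680 and 0.805 per 100 cells, beside control rates of 0.352, 0.583 and 1.04. In neurons, *Mrgpra2a* was at 0.703, 2.07 and 2.77 per 100 cells in sections 1, 2 and 3. The summed control rates there were close, at 0.937, 1.61 and 2.58. The other receptors were above these rates in neurons of every section. The part of control signal, and of transcripts assigned to a neighbouring cell, in these values was not tested.

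Among neurons, the second comparison set those with at least 1 transcript of *Prdm12* (35, 44 and 52 cells in sections 1, 2 and 3) against those with 0 (392, 391 and 490 cells). This split was chosen after the data had been seen. A neuron without a *Prdm12* transcript may still express the gene below what was detected. *Mrgprd* was far higher in neurons with *Prdm12*. *Mrgpra3* leaned the same way with few transcripts. *Mrgpra1* was higher in 3 of 3 sections but was not called, and *Mrgpra2b* was on both sides. The test covered 157 genes, and the background was 24.2% called higher and 21% called lower in neurons with *Prdm12*, with a median log2 fold change of -0.17. Of the 5 receptors 4 were tested, and 2 were called higher and 0 lower.

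**Figure D3:**
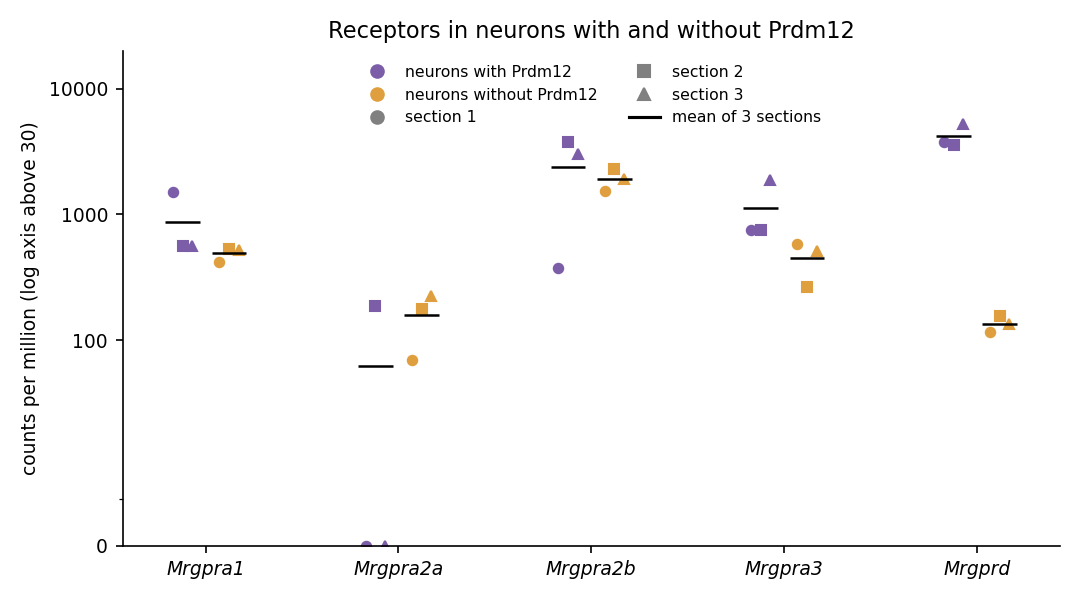
CPM (log axis above 30) of the 5 receptors in neurons with and without a *Prdm12* transcript, with 1 point per section and a bar at the mean of 3 sections. *Mrgprd* lies between 3567 and 5278 CPM in neurons with *Prdm12* and between 116 and 155 CPM in those without, while the *Mrgpra2b* points overlap.

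*Mrgprd* gave 10, 19 and 28 transcripts in neurons with *Prdm12* of sections 1, 2 and 3, which is 3750, 3567 and 5278 CPM. Neurons without *Prdm12*, with far more transcripts in all, gave 5, 7 and 9 (116, 155 and 135 CPM). The groups were far apart in every section. The summed counts of 57 of 13299 and 21 of 155077 transcripts gave a ratio of 31.7, with an exact 95% interval of 18.9 to 55.0 for counting error only. The log2 fold change was 4.93 (standard error 0.44, adjusted p = 3.41e-08 from edgeR), higher in 3 of 3 sections. Over the alternatives the adjusted p was between 2.35e-23 and 0.00932 (edgeR, DESeq2 or limma). Per 100 cells, neurons with *Prdm12* held 28.6, 43.2 and 53.8 *Mrgprd* transcripts and those without held 1.28, 1.79 and 1.84.

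After thinning to 10 transcripts, 4.76% ± 1.06 of neurons with *Prdm12* and 0.229% ± 0.0193 of those without held *Mrgprd* (22.0% and 1.24% before thinning), against 0.0319% ± 0.0552 in the *Car3* and *Pck1* subset. The median depth of these 3 groups was 90, 87 and 21 transcripts. By section, the median was 60, 100 and 91.5 transcripts in neurons with *Prdm12* and 80, 81 and 102.5 in those without. *Mrgprd* was in 30 of the 131 neurons with *Prdm12*, of which 17 held at least 2 transcripts and the highest held 5. It was in 16 of the 1273 neurons without, of which 13 held 1.

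*Mrgpra3* gave 2, 4 and 10 transcripts in neurons with *Prdm12* (750, 751 and 1885 CPM) and 25, 12 and 34 in those without (580, 266 and 508 CPM). The groups did not overlap in CPM, and section 3 was the highest of the neurons with *Prdm12*. The log2 fold change was 1.44 (standard error 0.53, adjusted p = 0.035 from edgeR). The call was lost under 7 alternatives, which include the count per cell (1.10, adjusted p = 0.0984), DESeq2 (1.38, adjusted p = 0.109), and edgeR without section 2 (1.43, adjusted p = 0.0804) or section 3 (0.98, adjusted p = 0.255). Over all alternatives the adjusted p was between 0.0134 and 0.255 (edgeR, DESeq2 or limma). After thinning, the shares overlapped, at 0.526%, 1.01% and 2.05% of neurons with *Prdm12* and 0.782%, 0.456% and 0.845% of those without. Neurons with *Prdm12* at 1129 ± 655 CPM were still below the Prx-positive cells. *Prx* itself was at 1942 and 1438 CPM in neurons with and without *Prdm12* (log2 fold change 0.48, adjusted p = 0.324 from edgeR), whose part in the *Mrgpra3* value was not tested.

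*Mrgpra2b* gave 1, 20 and 16 transcripts in neurons with *Prdm12* (375, 3754 and 3016 CPM) and 66, 103 and 128 in those without (1531, 2284 and 1914 CPM). Section 1 was low and the groups overlapped. The log2 fold change was 0.40 (standard error 0.38, adjusted p = 0.389 from edgeR). *Mrgpra1* gave 4, 3 and 3 transcripts with *Prdm12* and 18, 24 and 35 without. The CPM ranges, 563 to 1500 and 418 to 532, did not overlap, but the gene was not called (log2 fold change 0.62, standard error 0.60, adjusted p = 0.393 from edgeR). *Mrgpra2a* had too few transcripts to be tested. It was counted 1 and 26 times, a CPM ratio of 0.448 with an exact 95% interval of 0.0109 to 2.73.

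The number of transcripts per neuron separated the receptors further. *Mrgpra2b* was in 189 of 1404 neurons, and 59 of these held at least 2 transcripts, which together made up 61.1% of its transcripts in neurons. The highest count was 13. *Mrgprd* was in 46 neurons, of which 20 held at least 2, with 66.7% of its transcripts. *Mrgpra1* was in 69 neurons (10 with at least 2), *Mrgpra2a* in 24 (3 with at least 2) and *Mrgpra3* in 79 (7 with at least 2). Outside neurons, no cell held more than 1 *Mrgpra2b* transcript (77 cells with 1).

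**Figure D4:**
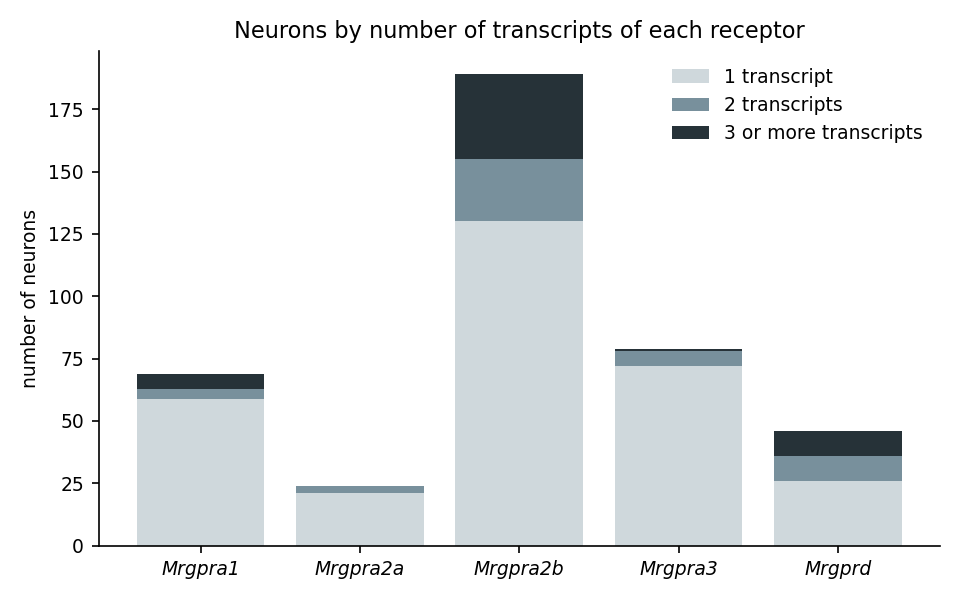
Number of neurons (vertical axis, 1404 neurons of 3 sections) that held 1, 2 or at least 3 transcripts of each receptor. *Mrgpra2b* has 59 neurons with at least 2 transcripts and *Mrgprd* has 20, whereas *Mrgpra3* has 7 among 79.

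The 20 neurons with at least 2 *Mrgprd* transcripts came from all sections (3, 8 and 9), and 17 of them held *Prdm12* (85.0%, against 8.24% of the other neurons). All 20 held *Scn10a*, the sodium channel of nociceptors, at 128015 CPM against 54410 CPM in the other neurons. *Runx1*, a transcription factor of nonpeptidergic neurons, was at 13451 against 2178 CPM. *P2rx3*, the ATP-gated channel, was not higher (10204 against 11382.5 CPM), and *Asic3* was lower (1391 against 2485 CPM). *Vip* (10668 against 3989 CPM) and *Trpm8* (3247 against 391 CPM) were higher, but were in only 3 and 2 of the 20 neurons. All neurons with *Prdm12* had *P2rx3* at 7577, *Asic3* at 15963, *Vip* at 1819 and *Trpm8* at 4696 CPM (means of 3 sections). Beside these, the 20 neurons were higher in *P2rx3* and *Vip*, lower in *Asic3* and not higher in *Trpm8*. The peptide genes *Calca* (29685 against 8272 CPM) and *Tac1* (13915 against 4338 CPM) were higher in these neurons than in the other neurons, but lower than in all neurons with *Prdm12* (49736 and 26120 CPM, means of 3 sections). In contrast, *Adcyap1*, which encodes the neuropeptide PACAP, was at 928 against 9433 CPM. *Trpv1*, the capsaicin receptor, was at 2319 against 8711 CPM, and was also below all neurons with *Prdm12* (8770 CPM, mean of 3 sections). *Trpa1*, the irritant receptor, was at 9276 against 15907 CPM. It was not lower than in all neurons with *Prdm12* (8462 ± 3902 CPM, SD, n = 3 sections). *Trpa1* was in 8 of these 20 neurons and in 40.8% of the other neurons. These values pool cells and are given without a test.

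Of the 59 neurons with at least 2 *Mrgpra2b* transcripts (15, 21 and 23 by section), 6 held *Prdm12* (10.2%, against 9.29% of the other neurons). All 59 held *Scn10a* and 55 held *P2rx3*, the ATP-gated channel. *Trpa1* (5781 CPM against 16770 CPM in the other neurons) and *Trpv1* (3923 against 9074 CPM) were lower in CPM. Both were also lower in the *Mrgprd* neurons than in the other neurons, but *Trpa1* was not lower there than in all neurons with *Prdm12*. *Adcyap1* was also lower in CPM (6194 against 9620 CPM), but it was in 36 of these 59 neurons (61.0%, against 41.3% of the others). In the *Mrgprd* neurons it was in 1 of 20 (5.0%, against 42.6% of the others). The 2 sets of neurons were not tested against each other. The 59 neurons with *Mrgpra2b* were deep, with a median of 232 transcripts against 83, and the part of depth in the numbers of cells was not tested. The 10 neurons with at least 2 *Mrgpra1* transcripts were also deep, with a median of 305 transcripts against 86. Of these 10, 1 held *Prdm12*, 9 held *Mrgpra2b* and 0 held *Mrgprd*.

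*Mrgpra1* and *Mrgpra2b* were often in the same neuron. Their coding sequences are 85.2% identical, and the part of this likeness in the shares below was not tested. Of the 69 neurons with *Mrgpra1*, 36 held *Mrgpra2b* (52.2%), against 11.5% of neurons without *Mrgpra1*, and both were seen together in 7, 13 and 16 neurons of the sections. Within neurons without *Prdm12* the shares were 55.0% (33 of 60) and 11.0%, and 3 of the 9 *Mrgpra1* neurons with *Prdm12* held *Mrgpra2b*. Of the 24 neurons with *Mrgpra2a*, 13 held *Mrgpra2b* (54.2% against 12.8%), a pair whose near identity in sequence is given above. *Mrgpra3* did not go with *Mrgpra1*, since 4 of the 69 *Mrgpra1* neurons held it (5.80%, against 5.62% of the others). Of the 46 *Mrgprd* neurons, 12 held *Mrgpra2b* (26.1%, beside 13.5% of all neurons), and 8 of these 12 were in section 3. Of the 69 *Mrgpra1* neurons, 6 held *Mrgprd* (8.70%, against 3.00% of the others), and 5 of these 6 were among the 9 *Mrgpra1* neurons with *Prdm12*. The part of depth in these shares was not tested.

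The *Mrgprd* transcripts outside neurons lay partly in cells that just missed the neuron gate. Of the 43 transcripts in remaining cells, 16 were in the 378 cells with 2 to 4 neuron transcripts (4.09 ± 2.99 per 100 cells, SD, n = 3 sections), and 27 in the 7218 cells with 0 or 1 (0.368 ± 0.186). Section 1 gave only 1 of the 16. *Mrgpra2b* (3.40 against 0.709 per 100 cells) and *Mrgpra1* (2.14 against 0.532) leaned the same way, and *Mrgpra3* did not (4.72 against 4.98). The cells with 2 to 4 were deeper, with a median of 23 transcripts against 6, and the part of depth was not tested. By number of neuron transcripts, *Mrgprd* was highest in cells with 10 to 19 of them (9.35 per 100 cells) and low in those with at least 40 (1.15), in contrast to *Mrgpra2b*, which was highest in the latter (67.8). *Mrgpra3* lay between 4.60 and 8.82 per 100 cells over the whole range of neuron transcripts.

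A list of 12 genes of nociceptors and itch neurons was set beside the receptors. Of these, 11 were tested between cell classes, all but *Trpm8*, the cold receptor. Against remaining cells, 10 were higher in neurons and 0 lower on the CPM scale, with a median log2 fold change of 2.02, and *Calca* was not called (0.12, adjusted p = 0.306 from edgeR). All 11 were higher per cell. Prx-positive cells had 11 lower and 0 higher than neurons on the CPM scale, with a median log2 fold change of -3.41. Both classes were gated on neuron transcripts, so low values of neuron genes in Prx-positive cells follow in part from the gate. *Mrgpra3* at 3.60 was opposite to the genes of this list on the CPM scale. Per cell it was not called (0.28), whereas the 11 genes were all lower (median -6.72). Between neurons with and without *Prdm12* all 12 were tested, 7 were higher, 3 were lower and 2 were not called, with a median of 1.02. *Trpm8* (log2 fold change 5.35), *Asic3*, an acid-sensing channel (3.47), *Tac1* (3.33), *Calca* (3.29), *Runx1* (1.49) and *Scn10a* (0.55) were higher, as was *Prdm12*, which set the gate. *Vip*, a peptide gene (-1.05), *Trpa1* (-0.89) and *P2rx3* (-0.64) were lower, and *Adcyap1* (0.30) and *Trpv1* (0.05) were not called. *Mrgprd* at 4.93 was close to *Trpm8*.

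The genes with the pattern most like each receptor were taken by Pearson correlation of log2(CPM + 1) over 12 sums (4 classes in 3 sections, with the neurons split into those with and without *Prdm12*), among 374 other genes with at least 20 transcripts. The sums of a section share its slide area and depth, and the values are a description. *Mrgpra3* was most like *Cav1* (r = 0.92), which encodes caveolin, *Kcna1* (0.90), a potassium channel subunit, and *Timp3* (0.89), a metalloproteinase inhibitor. *Mrgprd* was most like *Lpar3* (0.91), a lysophosphatidic acid receptor, *C1ql4* (0.88) and *Prdm12* (0.85), which set 1 of the classes. *Mrgpra2b* was most like *Il13ra1* (0.85), a subunit of the receptor for IL-13, *Aldh1b1* (0.82), counted only 22 times, and *Vip* (0.79). *Mrgpra2a* also had *Il13ra1* first (0.76), followed by *Ccdc80* (0.70) and *Aldh1b1* (0.69). Its sums were mostly near 0, with 0, 1 and 0 transcripts in neurons with *Prdm12*, 0, 0 and 1 in Prx-positive cells and 1, 0 and 6 in remaining cells. Its correlations therefore rest on few transcripts. *Mrgpra1* had *Rbp2* (0.73), *Aqp3* (0.72) and *Reg3g* (0.68), which were counted only 27, 24 and 27 times. Between receptors, *Mrgpra3* had r = 0.16 with *Mrgprd* and -0.34 with *Mrgpra2b*.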

How the data were processed

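Xenium in situ counts of 3 vagal ganglion sections were used as deposited. The authors decoded the probe signals and assigned the transcripts to segmented cells, and the deposited values are whole counts per gene and cell without normalization. Deposited metadata also hold control counts per cell, used here, and SCT totals with no stated unit, not used. The submitters' processing notes name Seurat. The genome build of the probes is not given in the sources used here. All 9785 cells were mapped to a section by their names (0 unmapped, 0 names shared). Cell positions and the lung sample were not analysed here. No doublet caller was run.

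The 5 members, the gates and the gene lists were chosen with earlier results of these data known. The named genes are the members, the gate genes, a list of 12 nociceptor and itch neuron genes, marker lists beside a result, and the 3 genes most like each member. Some listed genes, and results that need them, are not reported here. The split of neurons by *Prdm12* alone, and the sums used for likeness, were chosen after seeing the data. Genes met only in small sets of cells come from these lists.

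Counts were summed per section and class. Classes were compared in R 4.3.3 with edgeR 4.0.16 (glmQLFit and glmQLFTest, the quasi-likelihood test), scaled by library size alone, after filterByExpr and with a block for the section. The Benjamini-Hochberg adjustment ran over all genes tested and calls were made at 0.05 (9 sums for the cell classes, 6 for the split by *Prdm12*). Shares of cells were thinned to 10 transcripts by the hypergeometric expectation. Alternatives were TMM factors, counts per cell, DESeq2 1.42.0, limma 3.58.1 on log2(CPM + 1), no filter, no block, leaving out each section, other gates, and use of only those cells that held 10 or more transcripts. Sections carry their number in every class, since each class is taken from the same section, which is where the pairing comes from. In simulated sums for Prx-positive cells against neurons, 79.2% of genes changed by a log2 of 2 and 16.2% of those changed by 1 were recovered, with 4 false calls among 128 (213 genes tested). For neurons with against without *Prdm12* these were 84%, 23.5% and 0 of 98 (157 genes tested). The simulated sums used gene shares pooled over the classes, a fixed spread, no section effect and changes of random direction. The real classes differ in most genes, so these rates need not hold for them. Depth was 45763 to 72180 transcripts a section in neurons, 2389 to 4332 in Prx-positive cells, 20587 to 31609 in remaining cells and 2667 to 5327 in neurons with *Prdm12*. Limits for counts of 0 (3 counts of the total) and intervals cover counting error only. Levels of different genes depend on their probes and were not compared. Sequences are from RefSeq and GENCODE on GRCm38 and were aligned globally with Biopython 1.88. Promoters were listed for 4 of 5 members (not *Mrgpra3*). Other values were computed in Python 3.11.15 (pandas 2.3.3, scipy 1.17.1, numpy 2.4.6).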

Additional observations from a re-analysis of the deposited data

How the results depend on the processing

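For Prx-positive cells against neurons, the *Mrgpra3* value stayed positive under every alternative and lost its call with counts per cell (0.28). Values are log2 fold changes. *Mrgpra1* turned to -0.32 with TMM factors, -2.79 per cell, -0.27 with DESeq2 and -0.37 without section 3 (range -0.37 to 0.81 over the sections left out), and *Mrgprd* to -0.43, -2.88, -0.42 and -0.13 (range -0.13 to 0.70). *Mrgpra2b* became called at -1.49, -3.96 and -1.44 under the first 3 of these. The genes called went from 163 to 102 with stricter gates. For Prx-positive against remaining cells they went from 115 to 72 with DESeq2, 67 with stricter gates and 66 to 90 with a section left out, with 66 without section 1. There *Mrgpra1* turned to -0.14 with limma and -0.92 without section 3 (range -0.92 to 0.70), *Mrgprd* to -0.043 without section 1 and -0.21 without section 3 (range -0.21 to 0.42), and *Mrgpra3* to -0.081 without section 3 (range -0.081 to 0.41). For neurons against remaining cells, 232 genes were called, 361 with no filter and 134 with limma. *Mrgpra1* turned to 0.78 with TMM factors, 3.32 per cell, 0.81 with DESeq2 and 0.024 without section 1 (range -0.54 to 0.024), *Mrgprd* to 0.75, 3.27 and 0.85 under the first 3, and *Mrgpra3* to 0.28 per cell. For neurons with against without *Prdm12*, where all alternatives were chosen after seeing the data, 71 genes were called and 45 to 63 with a section left out (45 without section 3). *Mrgpra2b* turned to -0.22 with limma, and *Mrgpra3* (1.44) lost its call per cell (1.10), with DESeq2 (1.38), with no filter (1.43), with limma (1.25), with *Prdm12* of 2 or more (1.46), and without section 2 or 3 (range 0.98 to 1.74). The cause was not tested, other than that fewer sections or genes entered some fits. Without the section as a block, 163, 117, 229 and 83 genes were called in the 4 comparisons (163, 115, 232 and 71 with it), *Mrgpra3* was 3.62 in Prx-positive cells over neurons and *Mrgprd* 4.93 in neurons with *Prdm12*, and no call of a receptor changed. *Mrgprd* in neurons with *Prdm12* kept its call and direction under every alternative. Depth limits *Mrgpra2a* in particular, with 35 transcripts in all, and the Prx-positive class, where a count of 0 allows 693 to 1256 CPM in a section.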

Other observations

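Receptors of immune cells were looked for in the same cells. *Mrgpra2a* and *Mrgpra2b* are known from neutrophils, and 5 cells held at least 2 transcripts of a list of 7 neutrophil markers. These cells held 0 transcripts of either gene, 3 of *Mrgprd* and 1 of *Mrgpra1*. The 44 cells with *Cpa3*, a mast cell protease, held 2 transcripts of *Mrgpra3*, 1 of *Mrgprd* and 0 of the other receptors. Both sets are too small for a statement on immune cells.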
